A study of Rattus norvegicus with 15 samples.

Results

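The 40 genes described here are a fixed list of cell cycle genes. They were kept as 15 S phase genes, which prepare or carry out the copying of DNA, and 25 mitotic genes, most of which act around chromosome division. The rule takes genes by name and uses no measured value, although the list was drawn up with earlier results of these data known. A gene was measured through a probe set annotated with its symbol and no other, and where several such probe sets existed the one with the highest mean over all arrays was taken. This gave 36 measured members, 14 of the 15 S phase genes and 22 of the 25 mitotic genes, out of 18166 genes measured in this way. Rrm1 among the S phase genes and Cenpe, Birc5 and Anln among the mitotic genes had no probe set under their symbol alone. Mcm3, Mcm4, Rrm2 and Ccnb2 each had 2 probe sets.

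The study followed rat knee articular cartilage through life with Affymetrix whole-transcript arrays, to see how expression differs between developmental stages. There were 15 arrays in 5 groups of 3 biological replicates: T0 is newborn, T1 youth, T2 adult, T3 the early-stage elderly and T4 the latter-stage elderly. All animals were Sprague-Dawley, the labels tell the groups apart by stage, and no treatment or altered gene was named. Cartilage came from the right knee of individual animals, was frozen in liquid nitrogen and ground on ice, and its total RNA was extracted with Trizol. No age in days or months, no sex and no hybridization batch is given in these sources. The array T1 replicate 3 is labelled youth in title, description and stage but as adult in the source name field, and was kept at T1. The tissue was selected by hand and no cell sorting was described, so each value is an average over all cells in the piece. In such bulk RNA, fewer cells of a type and less RNA per cell cannot be told apart.

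As background, S phase begins when E2F transcription factors, released from the retinoblastoma proteins, switch on the genes for DNA copying, while Cdc6 and Cdt1 load the MCM helicase onto replication origins. The mitotic genes are transcribed later in the cycle, through B-MYB with the MuvB complex and FOXM1 at a promoter element called CHR, often beside CCAAT boxes bound by NF-Y. In growing cartilage chondrocytes divide, mature articular chondrocytes rarely do, and the marrow of adjoining bone holds many dividing blood precursors.

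These elements were looked for in the members' promoters. The RefSeq promoter table (rat assembly GRCr8) gives the 300 bases from 250 before to 50 after a gene's start, and held a window for 27 of the 36 measured members. The motifs searched on both strands were the CHR letters TTTGAA, the CCAAT box CCAAT, and the E2F site in its 4 forms TTTCCCGC, TTTCGCGC, TTTGCCGC and TTTGGCGC. The 4 mitotic promoters below, shown because they carry both CHR and CCAAT letters in the 150 bases before the start, have those letters in capitals.
Mki67: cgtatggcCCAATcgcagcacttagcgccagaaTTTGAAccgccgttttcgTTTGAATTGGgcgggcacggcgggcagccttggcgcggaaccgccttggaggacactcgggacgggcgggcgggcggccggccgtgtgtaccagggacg
Cdc20: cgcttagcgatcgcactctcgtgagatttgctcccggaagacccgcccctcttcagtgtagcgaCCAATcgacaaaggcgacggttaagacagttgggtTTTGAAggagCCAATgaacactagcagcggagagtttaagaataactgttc
Top2a: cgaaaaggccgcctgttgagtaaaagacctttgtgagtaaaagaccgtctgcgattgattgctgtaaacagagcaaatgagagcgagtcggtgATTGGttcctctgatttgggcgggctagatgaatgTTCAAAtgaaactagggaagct
Espl1: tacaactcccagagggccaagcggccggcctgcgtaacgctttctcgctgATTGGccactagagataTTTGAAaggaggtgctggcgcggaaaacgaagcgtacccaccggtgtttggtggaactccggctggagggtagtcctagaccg
These stretches lie at chr1:199952594-199952743 (minus strand) for Mki67, chr5:137255800-137255949 (minus strand) for Cdc20, chr10:84473094-84473243 (minus strand) for Top2a and chr7:135302566-135302715 (plus strand) for Espl1. In Mki67 a CHR and a CCAAT box, read on opposite strands, share 1 base.

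The 4 S phase promoters below, shown because they carry an E2F site in the same stretch, have only that site in capitals.
Mcm5: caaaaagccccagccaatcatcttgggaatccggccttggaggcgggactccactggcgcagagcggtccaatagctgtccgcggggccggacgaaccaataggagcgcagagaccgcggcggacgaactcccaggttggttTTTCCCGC
Mcm6: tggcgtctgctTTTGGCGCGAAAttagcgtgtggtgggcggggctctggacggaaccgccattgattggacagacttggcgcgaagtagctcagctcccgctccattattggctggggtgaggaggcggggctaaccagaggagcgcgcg
Mcm7: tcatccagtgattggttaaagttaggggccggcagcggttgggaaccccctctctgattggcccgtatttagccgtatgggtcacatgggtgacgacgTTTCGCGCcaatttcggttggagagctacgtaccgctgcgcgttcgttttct
Tyms: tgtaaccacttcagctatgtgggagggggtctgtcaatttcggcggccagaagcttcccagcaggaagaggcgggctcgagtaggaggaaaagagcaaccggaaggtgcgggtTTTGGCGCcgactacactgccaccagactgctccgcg
They lie at chr19:13488663-13488812 (plus strand) for Mcm5, chr13:42404353-42404502 (minus strand) for Mcm6, chr12:22163179-22163328 (minus strand) for Mcm7 and chr9:120776084-120776233 (minus strand) for Tyms. The Mcm6 stretch holds 2 overlapping E2F matches, one on each strand. Within the stretches shown, the first match began 8 bases before the start in Mcm5, 139 in Mcm6, 52 in Mcm7 and 37 in Tyms. Its place thus differed among these 4 promoters. Further matches lay upstream of the stretch, 213 and 209 bases before the start in Mcm5 and 233 in Mcm7.

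Over all members with a window, an E2F site was present in 7 of 9 S phase promoters (77.8%) and in 1 of 18 mitotic promoters (5.56%), that of Cdk1, the kinase that drives entry into mitosis. The share among all 33469 windows of the table was 2.14%. The CHR letters were present in 12 of 18 mitotic promoters (66.7%) and 1 of 9 S phase promoters (11.1%), that of Mcm2, and in 18.3% of all windows. CCAAT boxes were present in 14 of 18 mitotic and 5 of 9 S phase promoters (77.8% and 55.6%), against 37.5% of all windows. CHR and CCAAT stood together in 11 of 18 mitotic promoters (61.1%) and in none of the 9 S phase promoters, against 7.41% of all windows. Among other genes of the same processes, outside the 36 members, an E2F site was present in 14 of 35 replication promoters (40%) and 1 of 45 mitotic promoters (2.22%), and CHR letters in 6 of 35 (17.1%) and 31 of 45 (68.9%). A match of letters is a description of the window and shows no binding, and these shares were not tested.

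**Figure D1:**
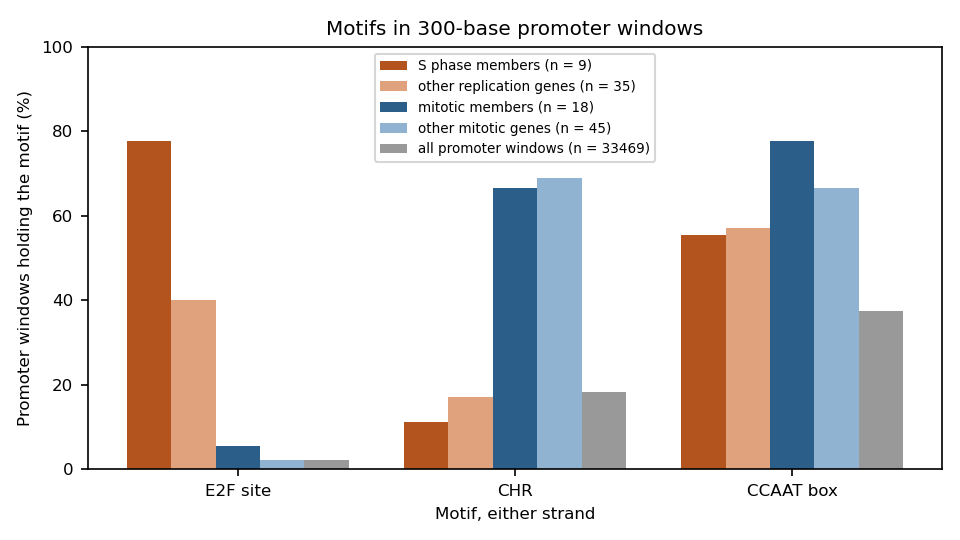
Share of 300-base promoter windows (percent, y axis) that hold each motif on either strand, for S phase members (9 windows), other replication genes (35), mitotic members (18), other mitotic genes (45) and all 33469 windows. The E2F bar is highest for S phase members at 77.8%, and the CHR bars are high for both mitotic groups, at 66.7% and 68.9%.

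Before the genes are described, the arrays themselves differ in one respect that bears on T4. The deposited values are log2 signals, and their SD over all 36685 probe sets was 2.00 to 2.05 on the T0, T1 and T2 arrays, 1.83 to 1.97 at T3, and 1.48, 1.71 and 1.68 on T4 replicates 1, 2 and 3. T4 replicate 1 stood apart from the other arrays: its mean correlation with the 9 arrays of T0 to T2 was 0.529, against 0.832 and 0.780 for T4 replicates 2 and 3 and at least 0.875 for every T3 array. The median signal of 1185 olfactory receptor genes, which cartilage is not known to use, was 2.95 ± 0.07 (SD, n = 3) at T0 and 3.89 ± 0.44 at T4, and reached 4.38 on T4 replicate 1. Low signals therefore sat higher, and the scale was narrower, on the T4 arrays, so results that rest on T4 are given with and without T4 replicate 1 and under a second normalization. Differences below are log2 differences between stage means from limma fitted to all 15 arrays, each with its standard error (SE), and a gene is said to have risen or fallen only at an adjusted p under 0.05 after Benjamini-Hochberg correction over all probe sets.

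The stage means give the course of these genes through life. From T0 to T3 the lowest stage mean was the newborn one in 13 of 14 S phase members and in 22 of 22 mitotic members, E2f1 being the exception. The highest mean lay at T2 in 9 and at T3 in 5 of the S phase members, and at T1 in 8, T2 in 11 and T3 in 3 of the mitotic members. Over all 5 stages the lowest mean was the T4 one in 12 of 14 and 19 of 22. No member had its highest mean at T0 or T4.

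**Figure D2:**
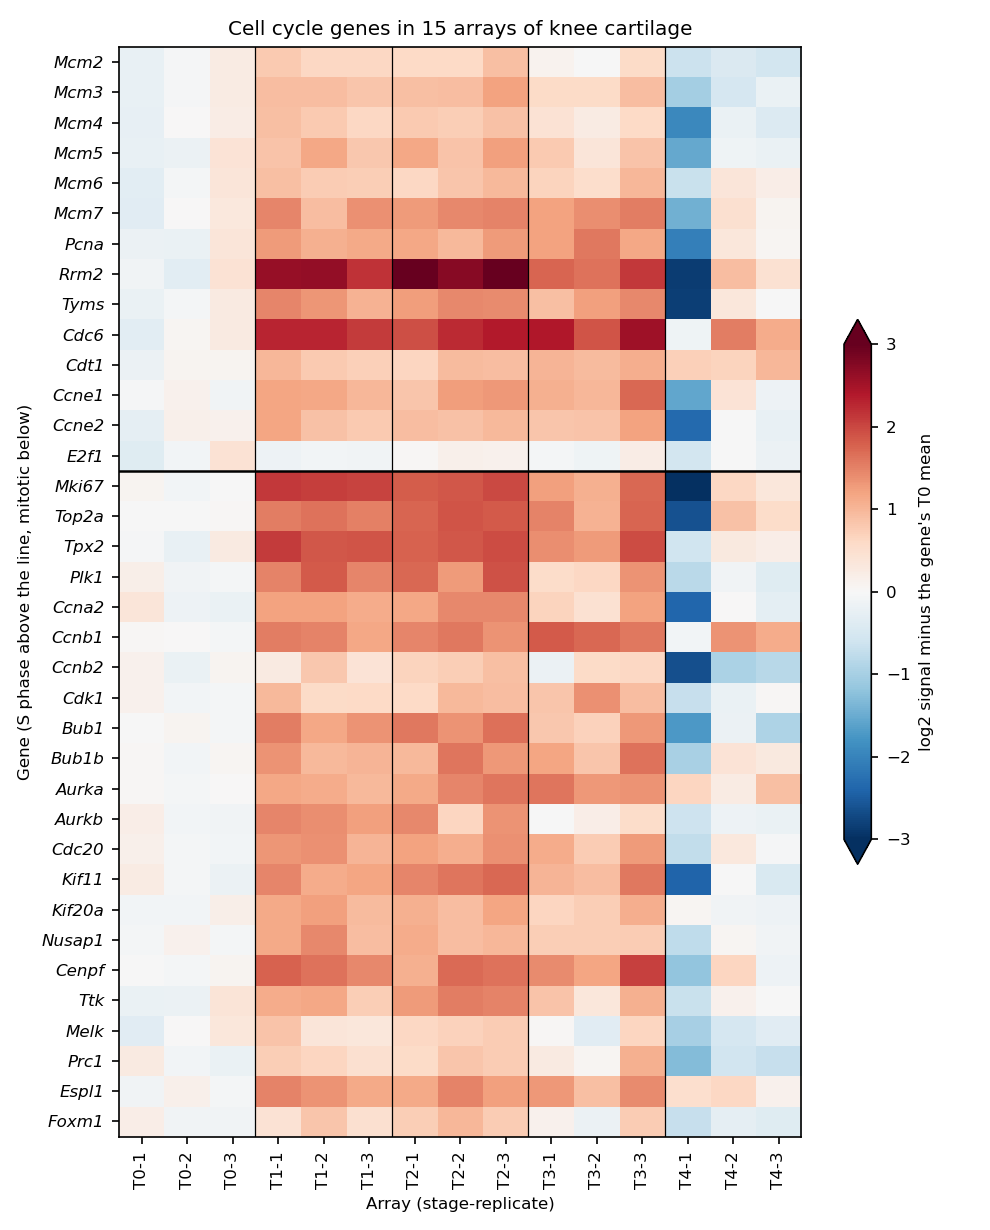
Log2 signal of each of the 36 measured members (rows, S phase above the line and mitotic below it) on each of the 15 arrays (columns, stage and replicate), minus the gene's own T0 mean, with colours limited at -3 and 3. The T1, T2 and T3 columns are warm for nearly every gene, and T4 replicate 1 is the coldest column; Rrm2, Cdc6 and Mki67 have the deepest colours.

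At the first step, newborn to youth, several members rose. Of the S phase members 4 of 14 rose and none fell, with a median difference of 0.94, and of the mitotic members 12 of 22 rose and none fell, with a median of 1.21, while the median over all 18166 genes was -0.03. Among all probe sets 4.01% rose at this step. The fit pools the spread of all 15 arrays, T4 included, and this limited the calls: in the fit without T4 replicate 1, limma called 13 of 14 S phase members and 18 of 22 mitotic members higher at T1, with 5.74% of all probe sets called. The 3 T1 arrays lay above the 3 T0 arrays, with no overlap, in 13 of 14 and 21 of 22 members, as they did for 14.9% of all probe sets. E2f1 and Melk were the members whose T0 and T1 arrays overlapped. The S phase count of 4 was 2 when T0 replicate 1, T0 replicate 2, T1 replicate 2 or T1 replicate 3 was left out, and 1 without T1 replicate 1.

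Among the licensing factors, which prepare origins before S phase, Cdc6 had signals of 4.65, 5.03 and 5.23 at T0 and of 7.26, 7.26 and 7.08 at T1. It rose by 2.23 (SE 0.34, limma adjusted p = 0.000706), a 4.69-fold difference, and every T1, T2 and T3 array, the lowest at 6.86, lay above every T0 array. Its later signals were 6.91, 7.22 and 7.34 at T2, 7.37, 6.86 and 7.51 at T3 and 4.84, 6.52 and 6.09 at T4. Cdt1, which delivers the helicase together with Cdc6, had signals of 5.67, 5.93 and 5.92 at T0, 6.83, 6.62 and 6.55 at T1 and 6.48, 6.80 and 6.77 at T2. Its rise at T1 of 0.83 (SE 0.18, limma adjusted p = 0.00797) was smaller than that of Cdc6 and also left no overlap between the arrays; without T1 replicate 1 its adjusted p was 0.0512.

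The MCM genes encode the 6 subunits of the replicative helicase, and all 6 were measured. Mcm3 had signals of 6.93, 7.12 and 7.39 at T0, 8.07, 8.08 and 7.97 at T1, 8.05, 8.08 and 8.35 at T2, and 7.72, 7.73 and 8.06 at T3, and at T1 it rose by 0.90 (SE 0.22, limma adjusted p = 0.0211). It was the only MCM gene called at this step, and its call was lost when any of T0 replicates 1 and 2 or the 3 T1 arrays was left out. The differences of the other subunits ranged from 0.67 for Mcm2 to 1.25 for Mcm7, all with T1 arrays above T0 arrays. Without T4 replicate 1 all 6 subunits were called at T1 minus T0, Mcm7 at 1.25 (SE 0.21, limma adjusted p = 0.00127).

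The stage means of the subunits ran in parallel. In the order T0 to T4, Mcm2 stood at 7.12 ± 0.24 (SD, n = 3), 7.79 ± 0.09, 7.81 ± 0.18, 7.34 ± 0.31 and 6.57 ± 0.10. Mcm5 stood at 7.16 ± 0.35, 8.10 ± 0.19, 8.24 ± 0.21, 7.82 ± 0.27 and 6.53 ± 0.80 over the same stages, and Mcm7 at 6.97 ± 0.33, 8.22 ± 0.29, 8.37 ± 0.11, 8.36 ± 0.16 and 6.68 ± 1.01. For Mcm4 the means were 7.74 ± 0.23, 8.51 ± 0.14, 8.54 ± 0.06, 8.16 ± 0.18 and 6.88 ± 0.95. The T2 minus T1 difference of the 6 subunits was at most 0.15, that of Mcm7, and Mcm6 was the flattest from T1 to T3, at 8.29 ± 0.08, 8.30 ± 0.18 and 8.23 ± 0.25 after 7.49 ± 0.34 at T0, before 7.45 ± 0.56 at T4.

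Of the genes that supply DNA building blocks and the clamp, Rrm2 rose at T1, and Tyms and Pcna were not called with all arrays. Rrm2, the regulated subunit of ribonucleotide reductase, had signals of 6.96, 6.74 and 7.50 at T0, 9.68, 9.69 and 9.22 at T1, 10.37, 9.80 and 10.35 at T2, 8.81, 8.69 and 9.19 at T3, and 4.22, 8.0 and 7.52 at T4. Its T1 minus T0 difference of 2.47 (SE 0.68, limma adjusted p = 0.0386) was the largest of the S phase members, and its T3 arrays all lay below its T1 and T2 arrays. Tyms, thymidylate synthase, stood at 7.82 ± 0.24, 9.10 ± 0.22, 9.20 ± 0.10, 9.02 ± 0.28 and 7.0 ± 1.74 from T0 to T4. Pcna, the sliding clamp of the polymerases, stood at 7.95 ± 0.32, 9.11 ± 0.11, 9.08 ± 0.15, 9.25 ± 0.23 and 7.39 ± 1.31. Their T1 minus T0 differences were 1.28 (SE 0.57) for Tyms and 1.16 (SE 0.45) for Pcna, and both were called in the fit without T4 replicate 1, whose 5.0 for Tyms and 5.88 for Pcna were the lowest values of these genes on any array.

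None of the 3 regulators of S phase entry was called at T1 with all arrays. The E-type cyclins, which activate Cdk2 at the start of S phase, stood at 6.69 ± 0.13 (Ccne1) and 6.68 ± 0.24 (Ccne2) at T0. At T1 they stood at 7.80 ± 0.10 and 7.63 ± 0.21, differences of 1.11 (SE 0.38) and 0.95 (SE 0.44) that were called only without T4 replicate 1. E2f1, a transcription factor of S phase genes, was the only member with a lower mean at T1 than at T0: its signals were 5.33, 5.59 and 6.12 at T0, 5.54, 5.59 and 5.56 at T1, 5.72, 5.82 and 5.80 at T2, 5.61, 5.54 and 5.90 at T3, and 5.13, 5.66 and 5.50 at T4. Its T0 array values spanned those of T1, T2 and T3, its T1 minus T0 difference was -0.11 (SE 0.22), and it was called in none of the 7 comparisons.

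**Figure D3:**
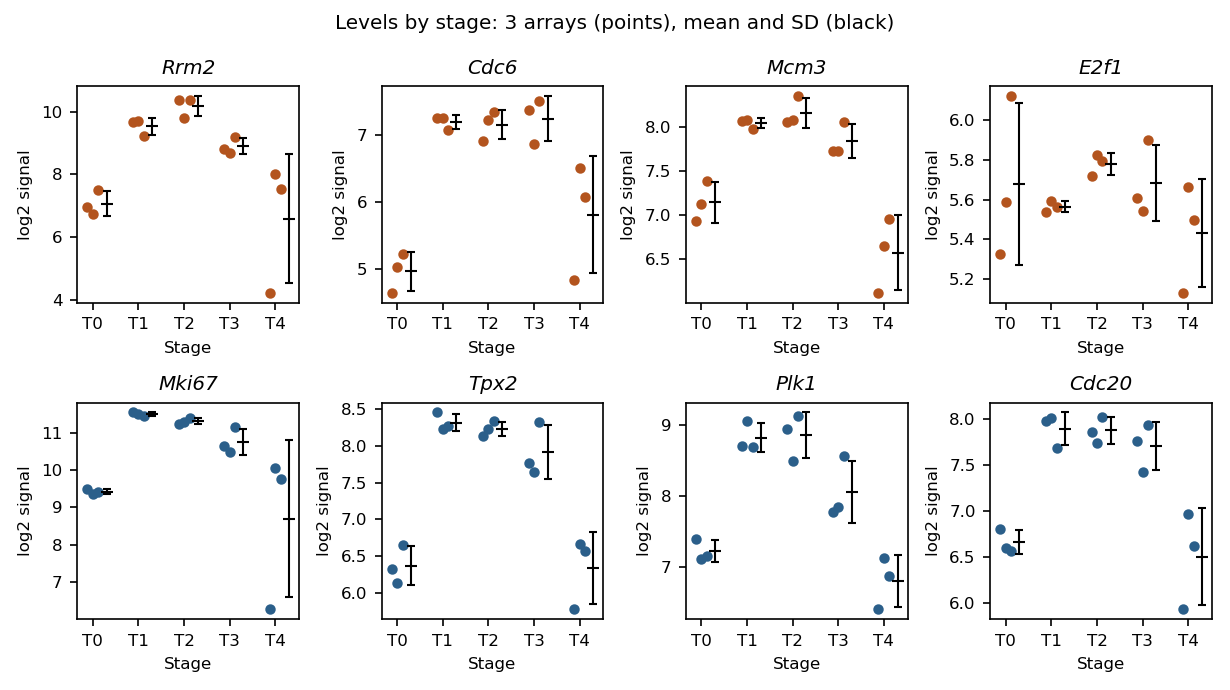
Log2 signal (y axis, own scale in each panel) of 4 S phase genes (upper row) and 4 mitotic genes (lower row) at the 5 stages; points are the 3 arrays of a stage in replicate order, and the black marks are the mean and SD. Rrm2, Cdc6, Mcm3, Mki67, Tpx2, Plk1 and Cdc20 sit higher at T1 than at T0 and lower at T4 than at T3, with T4 replicate 1 lowest of its stage, whereas E2f1 stays between 5.13 and 6.12.

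Of the 5 mitotic members that build and drive the spindle, Tpx2, Kif20a and Nusap1 rose and Kif11 and Prc1 were not called. Tpx2, which activates Aurora A and nucleates spindle microtubules, had signals of 6.32, 6.13 and 6.65 at T0, 8.46, 8.23 and 8.27 at T1, 8.14, 8.23 and 8.33 at T2, 7.77, 7.64 and 8.33 at T3, and 5.77, 6.66 and 6.57 at T4. It rose by 1.95 at T1 (SE 0.25, limma adjusted p = 0.000196), a 3.86-fold difference. Kif20a, a kinesin of the central spindle, rose by 1.11 (SE 0.18, limma adjusted p = 0.0011) from 6.42, 6.43 and 6.68 to 7.66, 7.75 and 7.46. The T1 arrays of both genes lay above their T0 arrays, and Kif20a later stood at 7.57 ± 0.12, 7.34 ± 0.23 and 6.44 ± 0.11. Nusap1, which bundles spindle microtubules, rose by 1.17 (SE 0.22), its means running 6.92 ± 0.11, 8.09 ± 0.25, 7.93 ± 0.09, 7.66 ± 0.02 and 6.65 ± 0.44 from T0 to T4. Kif11, the kinesin that pushes the spindle poles apart, had a like difference of 1.25 but a wider error (SE 0.44) and was not called; its means ran 6.70 ± 0.21, 7.95 ± 0.18, 8.29 ± 0.13, 7.88 ± 0.36 and 5.74 ± 1.27. Prc1, which crosslinks the central spindle, differed by 0.62 (SE 0.27) and was called in neither fit, with means of 7.50 ± 0.25, 8.12 ± 0.13, 8.21 ± 0.13, 7.96 ± 0.54 and 6.64 ± 0.38.

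Of the 5 kinases described next, Plk1, Aurkb and Aurka rose, and Cdk1 and Melk were not called with all arrays. Plk1, the polo kinase, had signals of 7.40, 7.11 and 7.16 at T0 and 8.71, 9.05 and 8.70 at T1, and rose by 1.60 (SE 0.26). Aurkb, the kinase of the chromosomal passenger complex, rose by 1.37 (SE 0.24) from 6.68, 6.39 and 6.37 to 7.95, 7.88 and 7.72. Aurka, the kinase of the spindle poles, rose by 1.08 (SE 0.20) from 5.99, 5.90 and 5.96 to 7.10, 7.05 and 6.93. The limma adjusted p-values of these 3 kinases lay between 0.00111 and 0.00282, and no T1 array overlapped a T0 array. At T2, T3 and T4 Aurka stood at 7.35 ± 0.24, 7.36 ± 0.16 and 6.54 ± 0.33. Cdk1 differed by 0.72 (SE 0.23) and was called only without T4 replicate 1; its means ran 7.04 ± 0.10, 7.75 ± 0.22, 7.87 ± 0.20, 8.08 ± 0.30 and 6.75 ± 0.37. Melk, another kinase high in dividing cells, was 4.53, 4.89 and 5.22 at T0 and 5.74, 5.26 and 5.22 at T1, and was not called in either fit; its T2, T3 and T4 means were 5.58 ± 0.07, 4.99 ± 0.50 and 4.27 ± 0.34.

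The checkpoint and anaphase genes came next. Espl1, the separase that cuts cohesin at anaphase, had signals of 5.23, 5.48 and 5.27 at T0 and 6.81, 6.69 and 6.47 at T1 and rose by 1.33 (SE 0.20, limma adjusted p = 0.00069). Bub1, a kinetochore checkpoint kinase, rose by 1.35 (SE 0.30), and its means ran 6.43 ± 0.07, 7.77 ± 0.18, 7.96 ± 0.15, 7.36 ± 0.32 and 5.49 ± 0.77. Ttk, the kinase that starts the spindle checkpoint, rose by 1.00 (SE 0.26), with means of 6.60 ± 0.33, 7.60 ± 0.23, 8.04 ± 0.14, 7.35 ± 0.38 and 6.42 ± 0.42. All 3 were called at T1 with all arrays, and Espl1 stood at 6.61 ± 0.17, 6.54 ± 0.27 and 5.75 ± 0.25 later. Cdc20, which directs the anaphase-promoting complex, rose by 1.24 (SE 0.24) from 6.66 ± 0.13 to 7.89 ± 0.18 and stood at 7.88 ± 0.15, 7.71 ± 0.26 and 6.50 ± 0.53 thereafter. Cenpf, a kinetochore protein, rose by 1.60 (SE 0.36) from 7.0 ± 0.08 to 8.60 ± 0.17 and stood at 8.47 ± 0.34, 8.55 ± 0.45 and 6.77 ± 0.91 later. Bub1b, which encodes the checkpoint protein BubR1, missed the threshold with a difference of 1.11 (SE 0.32, limma adjusted p = 0.0537), its means being 6.13 ± 0.08, 7.24 ± 0.22, 7.42 ± 0.31, 7.34 ± 0.40 and 6.03 ± 0.77.

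Of the 3 mitotic cyclins, 1 was called at T1 with all arrays. Ccnb1, a cyclin B that partners Cdk1, rose by 1.39 (SE 0.29) from 6.49 ± 0.06 to 7.88 ± 0.21, and stood at 7.94 ± 0.12, 8.20 ± 0.13 and 7.28 ± 0.76 at T2, T3 and T4. Ccnb2, the other B-type cyclin, differed by only 0.49 (SE 0.39), from 8.75 ± 0.17 to 9.24 ± 0.27, with 9.51 ± 0.12, 9.09 ± 0.45 and 7.28 ± 1.02 later, and was called in neither fit. Ccna2, cyclin A, differed by 1.18 (SE 0.46), its means running 7.62 ± 0.32, 8.80 ± 0.06, 8.97 ± 0.16, 8.40 ± 0.38 and 6.74 ± 1.30; it was called only without T4 replicate 1. Foxm1, a transcription factor of the mitotic genes, differed by 0.58 (SE 0.24), from 6.65 ± 0.17 to 7.23 ± 0.22, with 7.48 ± 0.14, 6.88 ± 0.48 and 6.21 ± 0.23 later. It was not called at this step in either fit.

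The proliferation markers show most plainly how T4 replicate 1 limited the calls. Mki67, the gene of the Ki-67 antigen, had signals of 9.50, 9.35 and 9.41 at T0, 11.54, 11.49 and 11.44 at T1, 11.24, 11.29 and 11.39 at T2, 10.65, 10.48 and 11.15 at T3, and 6.27, 10.05 and 9.75 at T4. Within T0, T1 and T2 its SD was at most 0.08, and its T1 minus T0 difference of 2.07 was the largest of the mitotic members. With all arrays its SE was 0.67 and its limma adjusted p 0.0884, because the SE is shared with T4, where its SD was 2.10; without T4 replicate 1 the SE was 0.18 and the adjusted p 4.97e-06. Top2a, the topoisomerase that untangles chromosomes, had a difference of 1.57 whose limma adjusted p was 0.191 with all arrays and 5.84e-05 without T4 replicate 1. Its means ran 8.07 ± 0.04, 9.63 ± 0.06, 9.89 ± 0.07, 9.49 ± 0.35 and 7.67 ± 1.93.

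**Figure D4:**
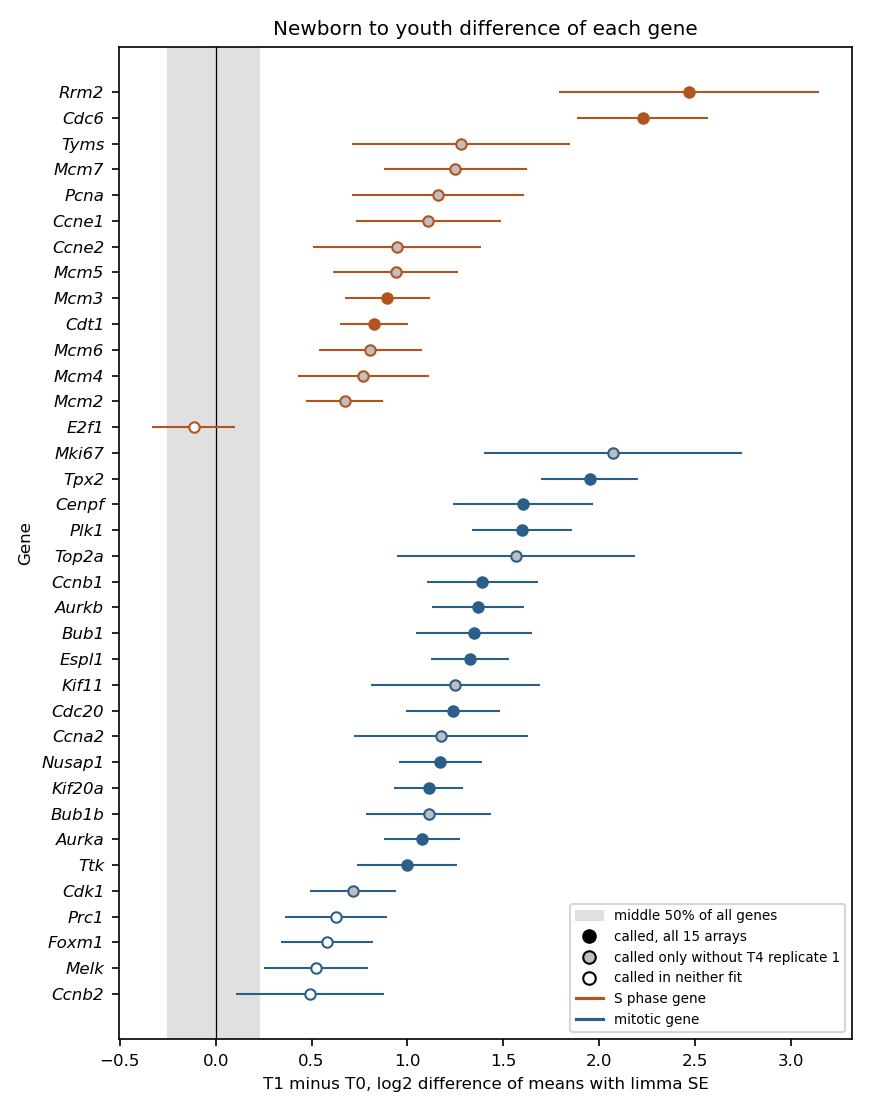
Log2 difference T1 minus T0 (x axis) of each member with its limma SE from all 15 arrays, S phase genes in orange and mitotic genes in blue, each sorted by size; the grey band holds the middle 50% of all genes, from -0.25 to 0.22. Filled points were called with all arrays, grey points only without T4 replicate 1, and open points (E2f1, Prc1, Foxm1, Melk and Ccnb2) in neither fit.

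From youth to adult no cell cycle gene passed the test. Limma called 0 of 14 S phase and 0 of 22 mitotic members at T2 minus T1, with medians of 0.03 and 0.10. Of all probe sets 0.891% were called in either direction. At an unadjusted p under 0.05 the member counts were also 0 and 0, against 1798 of all 18166 genes. The S phase members with the smallest p were E2f1 (0.22, SE 0.22), Rrm2 (0.64, SE 0.68) and Mcm3 (0.12, SE 0.22), each with an adjusted p of 1. The mitotic ones were Ttk (0.44, SE 0.26, limma adjusted p = 0.793), Aurka (0.33, SE 0.20, limma adjusted p = 0.821) and Foxm1 (0.25, SE 0.24, limma adjusted p of 1). A p that misses the threshold does not show equal levels, and the SE of these genes sets how small a difference could be seen.

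Against the newborn, the adult arrays gave more calls than the youth arrays did. At T2 minus T0, 7 of 14 S phase members rose, with a median of 1.05, and 16 of 22 mitotic members rose, with a median of 1.32, and none fell; 6.51% of all probe sets rose. This comparison shares its T0 arrays with the first step. Rrm2 rose by 3.11 (SE 0.68, limma adjusted p = 0.00551), an 8.64-fold difference, Cdc6 by 2.19 (SE 0.34, limma adjusted p = 0.000398) and Cdt1 by 0.84 (SE 0.18, limma adjusted p = 0.00423). The S phase genes called here and not at T1 minus T0 were Mcm2, Mcm5 and Mcm7. Of the mitotic genes, Tpx2 rose by 1.86 (SE 0.25, limma adjusted p = 0.000127), Aurka by 1.40 (SE 0.20, limma adjusted p = 0.000177) and Espl1 by 1.28 (SE 0.20, limma adjusted p = 0.000431), and Cdk1, Bub1b, Kif11 and Foxm1 joined the called genes. Without T4 replicate 1 the counts were 13 and 20, with 8.63% of all probe sets called, and E2f1, Melk and Prc1 were the members still not called. The S phase count was 4 when T0 replicate 1, T0 replicate 2, T2 replicate 2 or T2 replicate 3 was left out.

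Whether T1 lay off the midpoint of T0 and T2 was tested as T1 minus the mean of both. No ages are given, so it does not time the rise. The comparison shares its arrays with the steps above, and where T2 was close to T1 it largely repeats T1 minus T0. T1 lay above the midpoint in 13 of 14 S phase and 22 of 22 mitotic members, with medians of 0.45 and 0.58, against -0.01 for all genes. Only 1 member was called, Tpx2 at 1.02 (SE 0.22, limma adjusted p = 0.0448), and 0.94% of all probe sets were called in either direction. An unadjusted p under 0.05 was found for 2 of 14 S phase and 11 of 22 mitotic members, against 1661 of all 18166 genes. Cdc6 (1.14, SE 0.30, limma adjusted p = 0.110), Cdt1 (0.41, SE 0.15, limma adjusted p = 0.401) and Mcm3 (0.39, SE 0.19, limma adjusted p = 0.690) had the smallest p among the S phase members. Espl1 (0.68, SE 0.18, limma adjusted p = 0.104) and Aurkb (0.80, SE 0.21, limma adjusted p = 0.106) followed Tpx2 among the mitotic ones. Without T4 replicate 1 the counts were 2 (Rrm2 and Cdc6) and 6 (Mki67, Top2a, Tpx2, Ccnb1, Aurkb and Nusap1). In that fit 508 of 36685 probe sets were called higher and 255 lower, and Mki67 lay 1.13 above the midpoint (SE 0.15, limma adjusted p = 0.00147). The adjusted p of Tpx2 ranged from 0.000246 with array weights to 0.262 without T1 replicate 1 over the limma fits tried, and leaving out any 1 array of T0, T1 or T2, T3 replicate 1 or T4 replicate 3 ended its call.

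From adult to early-stage elderly the members with the smallest p all had lower means at T3, and limma called none of them. Of 14 S phase members 0 were called and 1 had an unadjusted p under 0.05, with a median of -0.08. Of 22 mitotic members 0 were called and 4 had such a p, with a median of -0.36. Of all probe sets 0.15% were called, and of all 18166 genes 3317 had an unadjusted p under 0.05. Such a p was therefore not particular to the members. Aurkb had signals of 7.91, 7.11 and 7.82 at T2, 6.48, 6.69 and 7.03 at T3 and 5.85, 6.33 and 6.27 at T4, a T3 minus T2 difference of -0.89 (SE 0.24, limma adjusted p = 0.0894). Plk1 had signals of 8.95, 8.50 and 9.12 at T2 and 7.77, 7.85 and 8.56 at T3, a difference of -0.79 (SE 0.26, limma adjusted p = 0.130) with overlapping arrays. Ttk differed by -0.69 (SE 0.26, limma adjusted p = 0.174). Among the S phase genes the smallest p belonged to Mcm2 (-0.48, SE 0.20, limma adjusted p = 0.207), Rrm2 (-1.28, SE 0.68, limma adjusted p = 0.310) and Mcm3 (-0.32, SE 0.22, limma adjusted p = 0.424). Without T4 replicate 1, Rrm2 (SE 0.25, limma adjusted p = 0.0262) and Aurkb (SE 0.22, limma adjusted p = 0.0393) were called lower at T3. Without T3 replicate 3, 3 mitotic members were. These 2 fits also called more of all 36685 probe sets lower, 973 and 1933, against 41 in the main fit. On the T3 arrays replicate 3 was the highest of its stage for Mki67, Tpx2, Plk1, Aurkb and Cenpf, among others.

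At T4 the signals of nearly all members were lower, on arrays whose scale was narrower. At T4 minus T3, 12 of 14 S phase members fell with a median of -1.36, and 21 of 22 mitotic members fell with a median of -1.29; 25.8% of all probe sets fell and the median over all genes was -0.15. These calls rest on the spread estimated from all 15 arrays: fitted to the T3 and T4 arrays alone, limma called 0 of 14 S phase members, with 11 at an unadjusted p under 0.05, and 3 of 22 mitotic members (Tpx2, Cdk1 and Bub1), with 3.34% of all probe sets lower. At T4 minus T2 the counts were again 12 and 21, with medians of -1.62 and -1.52, against 29.4% of all probe sets and -0.12 for all genes. The 3 T4 arrays lay below the 3 T2 arrays in 13 of 14 and 21 of 22 members, as in 31.3% of all probe sets. Cdt1 and E2f1 were called in neither of these comparisons, Aurkb not at T4 minus T3 and Ccnb1 not at T4 minus T2. The comparisons share the T4 arrays.

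Rrm2 fell most, by 3.60 from T2 to T4 (SE 0.68, limma adjusted p = 0.000643), a 12.1-fold difference. Mcm3, at 6.12, 6.65 and 6.95 on the T4 arrays, fell by 1.59 (SE 0.22, limma adjusted p = 9.4e-05), and Mcm2 fell by 1.24 (SE 0.20, limma adjusted p = 0.000221). Among the mitotic genes Bub1, at 4.71, 6.25 and 5.51, fell by 2.47 (SE 0.30, limma adjusted p = 4.6e-05), Plk1, at 6.40, 7.13 and 6.87, by 2.06 (SE 0.26, limma adjusted p = 5.3e-05) and Tpx2 by 1.90 (SE 0.25, limma adjusted p = 7.3e-05). All 6 of these genes had their 3 T4 arrays below every T2 and T3 array.

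From T3 to T4 the smallest p among S phase genes belonged to Mcm3, which fell by 1.27 (SE 0.22, limma adjusted p = 0.00113), Ccne1, which fell by 1.70 (SE 0.38, limma adjusted p = 0.00376), and Mcm7, which fell by 1.68 (SE 0.37, limma adjusted p = 0.00377). Of the mitotic genes, Tpx2 fell by 1.58 (SE 0.25, limma adjusted p = 0.000726), Bub1 by 1.87 (SE 0.30, limma adjusted p = 0.000774) and Cdk1 by 1.33 (SE 0.23, limma adjusted p = 0.000991). Cdt1 was not called and stood at 6.87, 6.80 and 6.94 on the T3 arrays and 6.57, 6.51 and 6.84 on the T4 arrays, a difference of -0.23 (SE 0.18). Ccne1 and Ccne2 stood at 7.95 ± 0.39 and 7.65 ± 0.21 at T3, after 7.82 ± 0.25 and 7.61 ± 0.05 at T2, and at 6.26 ± 1.02 and 5.83 ± 1.29 at T4.

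The 3 T4 arrays disagreed in size. T4 replicate 1 was the lowest of its stage in 13 of 14 S phase and 19 of 22 mitotic members, and the SD at T4 exceeded that of every other stage in 12 and 15 of them. The median SD of the members at T4 was 0.91 for S phase and 0.46 for mitotic genes, against 0.13 and 0.18 at T1. T4 replicates 2 and 3 both lay below every T3 array in 12 of 14 and 22 of 22 members. How often this held over all probe sets was not counted, so it cannot be called particular to the members. In a fit to the probe sets with a mean of at least 5, 8462 of 19216 fell at T4 minus T3, with a median of -0.52. In the fit without T4 replicate 1, 11 and 18 members fell at T4 minus T3 (medians -0.99 and -0.89, with 21.2% of all probe sets), and 11 and 21 fell at T4 minus T2 (medians -1.07 and -1.21, with 28.2%).

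The size of the T4 decline depended on the scale used. After quantile normalization, which gives every array the same distribution of signals, 3 S phase members (Mcm3, Cdc6 and Ccne1) and 11 mitotic members fell at T4 minus T3, with 17.6% of all probe sets. At T4 minus T2, 2 S phase members (Mcm3 and Rrm2) and 13 mitotic members fell, with 23.4% of all probe sets, and Cdt1 was called higher at T4, by 0.69 (limma adjusted p = 0.00849). The medians were then -1.07 and -0.78 for S phase and mitotic members at T4 minus T3, and -0.98 and -0.94 at T4 minus T2. Ranked among the 18166 genes of its own array, the median S phase member stood at percentile 89.9, 90.1 and 93.1 on the T2 arrays and at 53.2, 91.0 and 91.6 on the T4 arrays. The median mitotic member stood at 88.9, 90.0 and 90.2 at T2 and at 68.1, 87.2 and 88.1 at T4. By the rank of the median member, T4 replicates 2 and 3 therefore lay close to the T2 arrays and T4 replicate 1 did not. Single members moved both ways. Bub1 stood at 75.3 and 52.0 on T4 replicates 2 and 3, against 87.3 to 90.4 at T2. Cdt1 stood at 81.9 and 90.2, against 64.4 to 71.9 at T2. The percentiles of the newborn arrays were 74.7, 75.1 and 82.1 for S phase and 73.4, 67.6 and 69.7 for mitotic members, below every T1, T2 and T3 array on this scale too.

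Other genes of the same processes, outside the list of members, were also counted at T1 minus T0, where 4.01% of all probe sets rose. Of 40 further replication genes 37 were measured, and 11 rose at T1 minus T0 with a median of 0.70; the smallest p belonged to Asf1b, a histone chaperone of the replication fork, which rose by 1.64 (SE 0.25, limma adjusted p = 0.000642), and Orc1, a subunit of the origin recognition complex, which rose by 0.96 (SE 0.18). Of 56 further mitotic genes 51 were measured, and 26 rose with a median of 1.14; Kif18b, a kinesin that shortens microtubules, rose by 1.32 (SE 0.17, limma adjusted p = 0.000219) and Cenpi, a centromere protein, by 1.57 (SE 0.24). None of either list fell. Of 18 measured G1 regulators 5 rose and none fell with a median of 0.53; they included Mybl2, the B-MYB that drives mitotic genes, at 1.34 (SE 0.21, limma adjusted p = 0.000913), and E2f8, a repressor of the E2F family, at 1.49 (SE 0.26).

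At T2 minus T0, 18 of 37 replication genes, 35 of 51 mitotic genes and 8 of 18 G1 regulators rose, against 6.51% of all probe sets, and 2 G1 regulators fell. At T2 minus T1 and at T3 minus T2 limma called 0 genes of the 3 lists. At an unadjusted p under 0.05 there were 0, 0 and 2 at the former and 1, 2 and 4 at the latter. Of all 18166 genes, 1798 and 3317 had such a p at these steps. At T4 minus T2, 31 of 37, 45 of 51 and 14 of 18 fell, against 29.4% of all probe sets, and 1 G1 regulator rose. The medians at T4 minus T2 were -1.03, -1.43 and -1.22.

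Markers of chondrocytes and of other cells were also counted at the newborn to youth step. Of the erythroid markers 9 of 9 rose, with a median of 4.33, and of the granulocyte precursor markers 9 of 10 rose, with a median of 3.88. B cell precursor markers rose in 6 of 7 (median 2.18), blood progenitor markers in 5 of 6 (0.92), T cell markers in 4 of 8 (0.81), macrophage markers in 2 of 8 (0.45), osteoblast and osteocyte markers in 5 of 8 (1.56) and adipocyte markers in 3 of 6 (1.17). Skeletal muscle markers fell in 8 of 8 (median -2.06), of 11 chondrocyte markers 1 rose and 2 fell (median -0.22), and none of 4 endothelial markers was called by limma, nor had any an unadjusted p under 0.05. The called lists thus moved in different directions. Of all 36685 probe sets, 1472 (4.01%) rose and 1300 fell at this step.

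On the linear scale the summed erythroid signal was 254 to 541 on the T0 arrays, 10289 to 11586 at T1, 8307 to 10296 at T2, 6704 to 9250 at T3 and 693 to 4769 at T4. The granulocyte precursor sum was 317 to 596, 6680 to 8786, 17655 to 19904, 9885 to 14889 and 1052 to 10785 over the same stages. The B cell precursor sum was 629 to 635, 2447 to 2532, 2076 to 2856, 1303 to 1693 and 581 to 944. Each of these 3 sums was higher on every T1 array than on any T0 array. The summed signal of the S phase members was 1628 to 2307, 3937 to 4670, 4503 to 5307, 3640 to 4471 and 745 to 2257, and that of the mitotic members 3156 to 3559, 8226 to 9135, 8481 to 9528, 5985 to 8609 and 1321 to 3920. The chondrocyte sum took another course, with 17657 to 20135 at T0, 17052 to 18740 at T1, 8392 to 17187 at T2, 2709 to 7747 at T3 and 917 to 2122 at T4. From T1 to T2, where no cell cycle gene was called, granulocyte precursor markers had a median difference of 1.26 with 1 called, and 2 chondrocyte markers fell (median -1.04). Skeletal muscle markers fell in 5 of 8 (median -3.34) and adipocyte markers in 3 of 6 (median -1.44). Of the endothelial markers 1 of 4 fell, and of the osteoblast and osteocyte markers 1 of 8. No marker of the other lists was called, and 0.891% of all probe sets were called in either direction.

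The signals have no true zero, so no marker was at 0. The lowest value of an erythroid marker at T0 was 4.01, above the olfactory receptor median of 2.95, and of a granulocyte precursor marker 2.61, below it. The medians of the lists on the T0 arrays were 4.69 to 5.01 for erythroid and 4.87 to 5.35 for granulocyte precursor markers. At T4 the chondrocyte markers had a median of 6.33 ± 0.35, against 10.21 ± 0.10 at T0, so the defining genes of the labelled tissue were low on those arrays though above the olfactory receptor median. At T4 minus T2 erythroid markers fell in 6 of 9, granulocyte precursor markers in 8 of 10, B cell precursor markers in 7 of 7 and chondrocyte markers in 8 of 11. At this comparison 29.4% of all probe sets fell. In a fit to the probe sets with a mean of at least 5, 9551 of 19216 did, so these falls are not particular to the markers. The part of blood precursor cells, bone and muscle in the levels of the cell cycle genes was not tested.

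**Figure D5:**
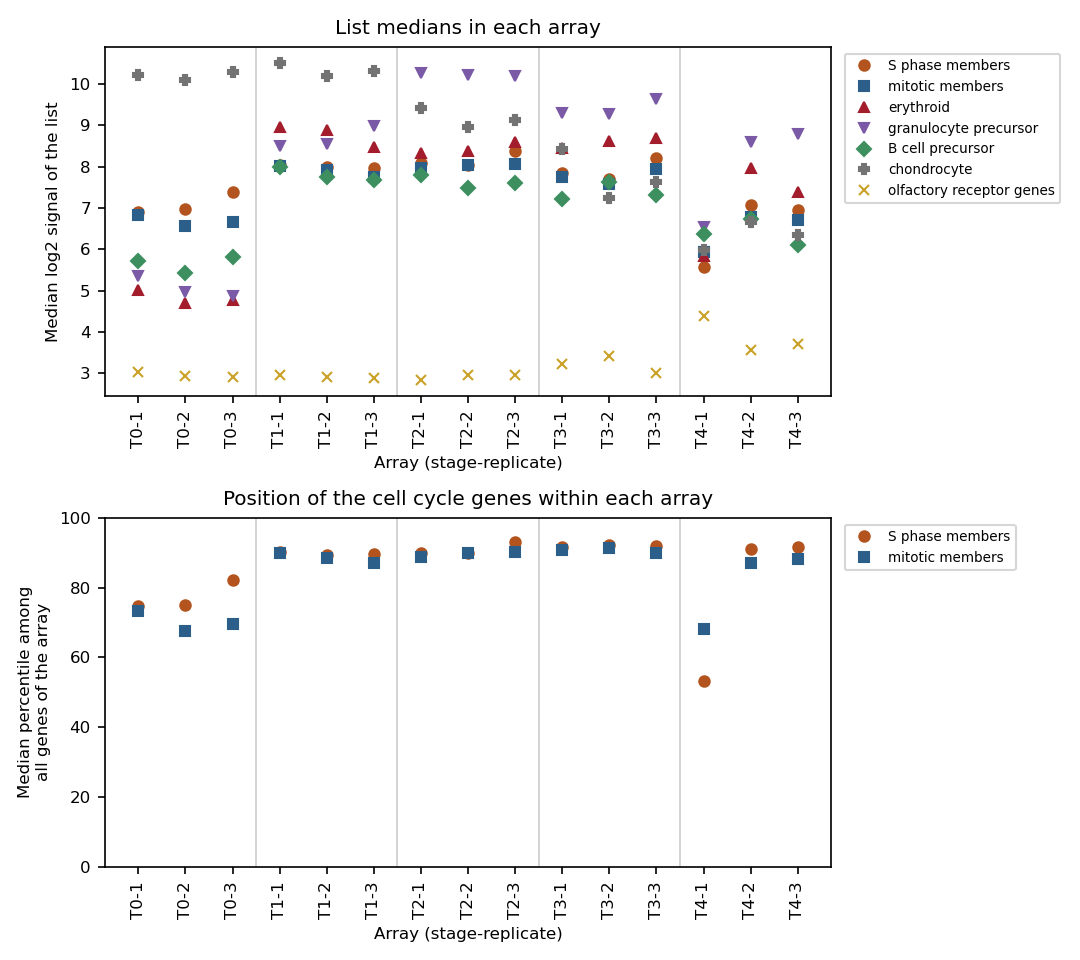
Upper panel, median log2 signal (y axis) of the S phase members, the mitotic members, 4 marker lists and 1185 olfactory receptor genes on each of the 15 arrays (x axis, stage and replicate). Lower panel, median percentile of the S phase and mitotic members among all genes of the same array; the members and the erythroid, granulocyte and B cell lists all sit higher at T1 than at T0, and only T4 replicate 1 drops by rank, to 53.2 and 68.1.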

How the data were processed

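Total RNA from 15 cartilage samples was hybridized to Affymetrix RaGene 2.0 ST arrays. The authors deposited log2 signals summarized with RMA, per the submitters' processing notes and the file header's column names; software version, library files and build: not given in the sources used here. These log2 values were used as deposited. Of 36685 probe sets 18511 carried 1 symbol, 575 several and 17599 none in the platform annotation. Stage means were fitted with limma 3.58.1 in R 4.3.3 over all probe sets and 15 arrays, with 7 comparisons and Benjamini-Hochberg adjustment; the number of arrays limits the precision. The groups follow the labels, replicates are called biological replicates there, and no array was dropped from the main counts. Every measured member was named with its stage values, and full statistics went to the 3 S phase and 3 mitotic members with the smallest p in a comparison, and of the other pathway lists to the 2 genes with the smallest p at the first step. The members, pathway lists and marker lists were chosen with earlier results of these data known. Promoter sequences came from RefSeq (GRCr8); Aurkb, Ccna2, Ccne2, Cdc6, E2f1, Foxm1, Mcm4, Rrm2 and Tpx2 were not matched in that table. The percentile scale and the member counts without T4 replicate 1 were added after seeing the data. The fit was also run on simulated data in which each probe set had the same spread at every stage. That run therefore cannot show how the fit behaves with the wider spread at T4. Alternatives were other normalizations, filters, variance models, subsets of arrays, the label of T1 replicate 3, the rule for several probe sets, array weights and a replicate block.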

Additional observations from a re-analysis of the deposited data

How the results depend on the processing

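Counts are given as S phase, then mitotic members called by limma. T1 minus T0 (4 and 12) gave 2 S phase calls with quantile normalization and with T1 replicate 3 placed in T2. It gave 7 S phase calls with only probe sets of 1 symbol and 13 without the T4 arrays. It gave 13 and 20 with array weights, and 13 and 19 with only the stages compared. In the same order, these fits called 1024, 958, 1436 of 18511, 2120, 3327 and 2701 probe sets higher, of 36685 unless stated, against 1472 in the main fit. T2 minus T0 (7 and 16) gave 13 S phase calls with array weights, with only the stages compared and without the T4 arrays. These fits called 4612, 3700 and 3211 of 36685 probe sets higher, against 2388 in the main fit. T3 minus T2 (0 and 0) gave 3 and 8 with array weights and 1 and 1 without the T4 arrays. Of all 36685 probe sets, array weights called 5899 higher and 4565 lower, and the fit without the T4 arrays 963 and 932. The main fit called 14 and 41, so these added calls are not particular to the members. T4 minus T3 (12 and 21) gave 3 and 11 with quantile normalization, and 0 and 3 with only the stages compared. T4 minus T2 (12 and 21, all falls) gave 3 and 13 with quantile normalization, where the 3 are 2 falls and 1 rise, that of Cdt1. T1 against the mean of T0 and T2 (0 and 1) gave 1 and 3 with probe sets of 1 symbol and 2 and 12 with array weights. It gave 1 and 12 with only the stages compared, and 1 and 6 without the T4 arrays. Higher and lower, these fits called 312 and 128 of 18511 probe sets, then 1231 and 993, 713 and 441, and 507 and 251 of 36685. The mitotic count was 0 with quantile normalization, median centring, a trended robust variance, T1 replicate 3 placed in T2, and the replicate block. The cause of these shifts was not tested beyond the fewer samples or probe sets in some fits. Leaving out 1 array gave 1 to 13 and 9 to 18 calls at T1 minus T0, 0 and 0 at T2 minus T1, 0 to 1 and 0 to 3 at T3 minus T2, 10 to 12 and 16 to 21 at T4 minus T3, 4 to 13 and 11 to 20 at T2 minus T0, 11 to 12 and 21 to 22 at T4 minus T2, and 0 to 2 and 0 to 6 for T1 against the mean. Cdt1 at T4 minus T2, -0.04 and not called with the deposited values, was called at 0.69 with quantile normalization. The replicate numbers did not pair the arrays: of 30 same-numbered pairs 1 had deviations correlated above 0.1 (range -0.19 to 0.12), and the replicate block gave 4 and 12 at T1 minus T0, 8 and 15 at T2 minus T0, 12 and 20 at T4 minus T3 and 12 and 21 at T4 minus T2. Signals near the olfactory receptor median limit what can be read from dim probes, most of all on T4 replicate 1.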
